A study of Homo sapiens with 6 samples.

Results

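The genes of the unfolded protein response and the integrated stress response were examined in THP-1 macrophages treated to induce pyroptosis, with and without ruxolitinib. The 38 members were picked by gene symbol, by a list drawn up with earlier results of these data known, from the 61517 rows of the deposited count table. All 38 were found, and 37 were expressed highly enough to be tested. THP-1 is a human monocytic leukaemia line, which the study differentiated into macrophages and then treated with LPS and ATP to induce pyroptosis, a lytic inflammatory cell death. The 3 control libraries came from such cells without further drug (titles RUX-1 to RUX-3), and the 3 ruxolitinib libraries from such cells that also received the drug (titles RUX+1 to RUX+3), which the treatment field spells Lukotinib and the series title ruxolitinib, an inhibitor of the kinases JAK1 and JAK2. Both groups are therefore stimulated cells of 1 line, and unstimulated cells were not analysed here. The sources used here do not state doses, times or how the cells were differentiated.

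The endoplasmic reticulum (ER) folds secreted and membrane proteins, and unfolded protein there activates 3 sensors in its membrane. ATF6 is cut in the Golgi to free a transcription factor, IRE1 (gene ERN1) splices the XBP1 transcript into one that encodes a factor, and PERK (gene EIF2AK3) phosphorylates eIF2alpha. The first pair induces chaperones, degradation factors and the protein import channel. Phosphorylated eIF2alpha, which other kinases also produce in the integrated stress response, lowers general translation and raises translation of ATF4, whose targets serve amino acid supply, redox balance and cell death. Macrophages that secrete cytokines draw on the same machinery. Counts per gene measure total transcript, so XBP1 splicing, ATF6 cleavage and eIF2alpha phosphorylation were not measured.

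The libraries held 17757595 to 24533979 counts in control and 18796476 to 19253534 with ruxolitinib. Mitochondrial transcripts took 5.27% to 5.90% of counts in control and 3.75% to 6.42% with ruxolitinib. The 10 macrophage and monocyte markers examined had a summed level of 1173 to 1207 CPM (counts scaled to a common library size) in control and 641 to 685 CPM with ruxolitinib, and 8 of the 9 tested were lower, LYZ being higher. None of the 10 was at 0, although MRC1 stayed under 1 CPM in both groups. Lymphocyte markers summed to 0.434 to 0.507 CPM in control and 0.215 to 0.578 CPM with ruxolitinib, with CD3D and CD3E at 0 throughout. Epithelial, fibroblast and endothelial markers summed to 1.86 to 3.07 CPM in control and 1.83 to 1.98 CPM with ruxolitinib. The part of the macrophage marker shift in the results on stress genes was not tested. In bulk RNA, fewer cells of a type and less RNA per cell cannot be told apart.

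Chaperone, import and degradation genes were mostly higher with ruxolitinib, and of the genes downstream of ATF4 few passed the test. Of the 37 tested members, 23 rose, 3 fell and 11 did not pass (edgeR's quasi-likelihood test, Benjamini-Hochberg adjusted p under 0.05 over all 14051 tested genes). Among all tested genes 29.7% passed, 13.6% higher and 16.1% lower. Which direction was the more frequent over all genes turned with the scaling, at 2318 higher and 1957 lower with upper-quartile factors and 1578 higher and 2621 lower with library totals alone. The groups did not overlap for 28 members, 25 higher and 3 lower with ruxolitinib, while over all tested genes they did not overlap for 44.2%, 20.5% higher and 23.8% lower. The median log2 fold change was 0.25 over the tested members and -0.01 over all tested genes, so the shifts were small, with only DNAJB9 reaching a doubling. Without both libraries of batch 1, a number that the labels give to 1 control and 1 ruxolitinib library, 14 members rose and 1 fell, and 1983 of all tested genes passed in place of 4175.

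**Figure D1:**
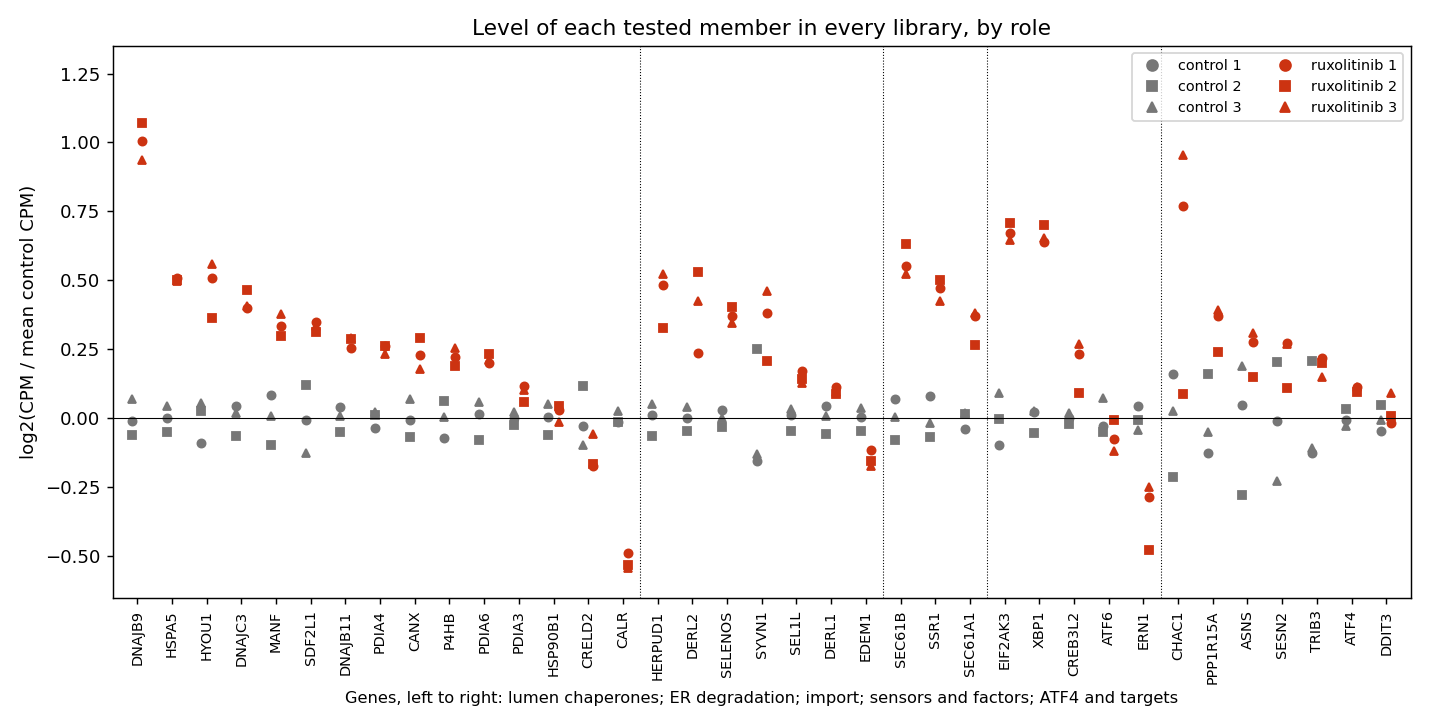
Level of each of the 37 tested members in every library, as log2 of CPM over the mean control CPM, with control libraries in grey and ruxolitinib libraries in red, marker shapes giving the replicate number and dotted lines separating the roles. DNAJB9, XBP1 and EIF2AK3 stand above all control points, CALR stands below them, and for TRIB3, SESN2 and PPP1R15A control replicate 2 is the highest control point.

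The chaperone BiP and its partners led the rise in the ER lumen. Of 15 chaperones and folding factors, 11 rose, CALR fell, and HSP90B1, PDIA3 and CRELD2 did not pass. That is 80% called, beside 29.7% of all tested genes, of which 13.6% were higher. DNAJB9 (ERdj4), a J-domain partner of BiP that also restrains IRE1, stood at 65.4, 63.1 and 69.2 CPM in control replicates 1 to 3 and at 132, 138 and 126 CPM in ruxolitinib replicates 1 to 3. Its groups lay far apart, and the fitted difference was 1.01 ± 0.05 on the log2 scale (SE, 3 libraries a group, adjusted p = 6.15e-08), or 2.01-fold. Exons of DNAJB9 overlap those of PNPLA8, on the opposite strand, over 99 bases, and PNPLA8 had 152% of its counts and rose by 0.30 ± 0.07. THAP5, also on the opposite strand, overlaps it over 183 bases and had 15.6% of its counts. HSPA5 (BiP), the main Hsp70 of the ER and the protein that holds the sensors inactive, had 1218, 1175 and 1254 CPM in control and 1730, 1722 and 1716 CPM with ruxolitinib (0.50 ± 0.04, adjusted p = 3.99e-06). The ruxolitinib libraries of HSPA5 were nearly level, and each was well above every control library.

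Other partners of BiP moved the same way. HYOU1 (GRP170), its nucleotide exchange factor, rose from 201 ± 10.5 to 281 ± 19.4 CPM (SD, n = 3, log2 fold change 0.48 ± 0.06), and DNAJC3 (p58IPK), a J-domain protein that also inhibits PERK, from 195 ± 7.59 to 262 ± 6.41 CPM (0.42 ± 0.05). DNAJB11 (ERdj3), which delivers unfolded proteins to BiP, rose by 0.28 ± 0.04 on the log2 scale and MANF, an ER protein that binds BiP, by 0.34 ± 0.06. SDF2L1, found in complex with DNAJB11, had 9.61 ± 0.811 and 12.1 ± 0.144 CPM and a log2 fold change of 0.33 ± 0.10 (adjusted p = 0.0271). SDF2L1 no longer passed with the batch number as a block (adjusted p = 0.0768), by DESeq2 (0.0731), without control replicate 1 or 3 (0.0585 and 0.0905), without ruxolitinib replicate 1 or 3 (0.0883 and 0.0584) or after dropping the pair of batch 1 or 3 (0.199 and 0.174).

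The disulphide isomerases and the lectin chaperones did not move as one. PDIA4, PDIA6 and P4HB, which form and rearrange disulphide bonds, rose by 0.25 ± 0.04, 0.22 ± 0.05 and 0.22 ± 0.05 on the log2 scale. PDIA3 (ERp57), the isomerase that works with the lectin chaperones, had 794 ± 13.0 CPM in control and 847 ± 17.3 CPM with ruxolitinib (0.09 ± 0.04, adjusted p = 0.117, but 0.0386 with upper-quartile scaling). Calnexin and calreticulin, the membrane-bound and soluble chaperones that hold glycoproteins, went in opposite directions. CANX rose from 987 ± 48.1 to 1162 ± 44.6 CPM (0.23 ± 0.05, adjusted p = 0.00396). CALR (chromosome 19, 12938578 to 12944489) stood at 1742, 1744 and 1790 CPM in control and at 1253, 1216 and 1208 CPM with ruxolitinib. It was the only lumen chaperone to fall, with a log2 fold change of -0.52 ± 0.04 (adjusted p = 2.35e-06), and its ratio within batches 1, 2 and 3 was -0.47, -0.52 and -0.57 on the log2 scale. CALR, PDIA3 and CANX also serve peptide loading or folding of MHC class I molecules, and the first fell, the second did not pass and the last rose. Without both libraries of batch 1 the calls of PDIA4, PDIA6, P4HB and CANX were lost (adjusted p = 0.0767, 0.0942, 0.167 and 0.124).

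HSP90B1 and CRELD2 showed no rise. HSP90B1 (GRP94), the Hsp90 of the ER, had 993, 949 and 1025 CPM in control and 1010, 1021 and 980 CPM with ruxolitinib, so the groups overlapped (log2 fold change 0.02 ± 0.05, 95% interval -0.08 to 0.12, adjusted p = 0.769). CRELD2, a secreted ER stress-induced protein, had 18.5 ± 1.43 and 16.9 ± 0.753 CPM (-0.13 ± 0.08, 95% interval -0.32 to 0.05, adjusted p = 0.274). The upper ends of these intervals lie below the change of HSPA5.

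The promoters of several of these genes carry the ER stress response element, and they are shown because genes with the same element differed in direction. RefSeq promoter windows on GRCh38.p14, from 250 bases before to 50 after a start, were found for 36 of the 38 members, as 49 windows. The element ERSE, CCAAT and CCACG with 9 bases between them on either strand, is bound by NF-Y at its first block and ATF6 or XBP1 at its last. It was in windows of 7 members, and in 9 of the 49 member windows (18.4%) against 27 of all 35116 windows (0.0769%), where windows of 1 gene can overlap and share a site. The 9 are among the 27. The chaperones were listed as targets of ATF6 or XBP1, which bind this element, so these shares are a description and no test. Of these 7 genes, HSPA5, XBP1, PDIA6 and CANX rose, CALR fell, and HSP90B1 and CRELD2 did not pass. Capitals mark the element, on the gene's strand and 5′ to 3′, and in HSP90B1 (second site), CALR and CRELD2 it reads as the reverse complement.
HSPA5, chr9:125241379-125241421, minus strand: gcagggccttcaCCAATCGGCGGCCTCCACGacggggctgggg
XBP1, chr22:28800591-28800633, minus strand: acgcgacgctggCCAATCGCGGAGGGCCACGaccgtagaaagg
PDIA6, chr2:10812841-10812883, minus strand: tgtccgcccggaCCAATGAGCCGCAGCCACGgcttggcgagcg
CANX, chr5:179698766-179698808, plus strand: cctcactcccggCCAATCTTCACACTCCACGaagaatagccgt
HSP90B1 first site, chr12:103930204-103930246, plus strand: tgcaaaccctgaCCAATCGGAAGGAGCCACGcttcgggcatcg
HSP90B1 second site, chr12:103930309-103930351, plus strand: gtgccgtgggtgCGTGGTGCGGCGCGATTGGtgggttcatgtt
CRELD2, chr22:49918542-49918584, plus strand: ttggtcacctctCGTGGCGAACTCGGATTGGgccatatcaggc
CALR, chr19:12938372-12938414, plus strand: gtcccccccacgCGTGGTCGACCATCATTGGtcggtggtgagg

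A shorter relative, ERSE-II (ATTGG and CCACG with 1 base between them, on either strand), was in windows of HYOU1, HERPUD1 and SDF2L1, all of which rose, the last with a call that was lost under several alternatives. It was in 19 of all 35116 windows (0.0541%). The CARE motif of ATF4 with C/EBP partners, TGATGNAA on either strand, was in windows of ASNS, CHAC1, CREB3L2 and HERPUD1. These were 4 of the 49 member windows (8.16%), against 3.62% of all windows. CREB3L2 and HERPUD1 rose, the first with a call lost under several alternatives, and ASNS and CHAC1 did not pass. HERPUD1 thus carries both ERSE-II and CARE, and the CREB3L2 match lies after the start. The CARE matches of CREB3L2 and HERPUD1 are not printed below. The XBP1 motif UPRE, TGACGTGG on either strand, was in a window of HYOU1, where it overlaps an ERSE-II, and in 0.729% of all windows. A match describes the letters of these windows and is no evidence of binding in these cells. Capitals mark ERSE-II in the first 4 lines and CARE in the last 2.
HYOU1 far site, chr11:119057368-119057402, minus strand: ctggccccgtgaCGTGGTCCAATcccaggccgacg
HYOU1 near site, chr11:119057262-119057296, minus strand: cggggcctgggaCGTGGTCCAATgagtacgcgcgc
HERPUD1, chr16:56932013-56932047, plus strand: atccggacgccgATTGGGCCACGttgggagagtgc
SDF2L1, chr22:21642102-21642136, plus strand: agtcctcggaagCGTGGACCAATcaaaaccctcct
ASNS, chr7:97872457-97872488, minus strand: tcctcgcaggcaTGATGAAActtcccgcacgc
CHAC1, chr15:40953250-40953281, plus strand: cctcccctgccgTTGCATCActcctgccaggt

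The import channel rose as a group of 3. SEC61B, a subunit of the Sec61 channel through which new proteins enter the ER, stood at 74.4, 67.0 and 71.0 CPM in control and at 104, 110 and 102 CPM with ruxolitinib (a log2 difference of 0.57 ± 0.05, adjusted p = 9.84e-06). SEC61A1, the pore-forming subunit, rose from 475 ± 10.9 to 602 ± 26.4 CPM (0.34 ± 0.05). SSR1, a subunit of the TRAP complex beside the channel, had 149, 134 and 139 CPM in control and 195, 199 and 189 CPM with ruxolitinib (0.47 ± 0.05). None of the 3 had overlapping groups, which was also so for 44.2% of all tested genes. All 3 calls held under each of the 17 alternatives.

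ER-associated degradation, which sends misfolded proteins to the proteasome, was higher at several steps. Of 7 genes, 5 rose, EDEM1 fell and DERL1 did not pass. That is 85.7% called, beside 29.7% of all tested genes, of which 13.6% were higher. HERPUD1, a scaffold of the degradation complex, had 87.0, 82.5 and 89.4 CPM in control and 121, 108 and 124 CPM with ruxolitinib (a log2 difference of 0.45 ± 0.06, adjusted p = 1.37e-04). DERL2, a channel component, rose from 27.8 ± 0.826 to 36.7 ± 3.75 CPM (0.40 ± 0.08) and SELENOS, which recruits the ATPase p97, from 85.5 ± 1.91 to 111 ± 2.26 CPM (0.37 ± 0.05). The related channel gene DERL1 had 0.10 ± 0.04 (adjusted p = 0.114, but 0.0416 with upper-quartile scaling).

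The remaining calls in this group were fragile. SEL1L, the adaptor of the ubiquitin ligase HRD1, had 129 ± 3.75 and 143 ± 2.36 CPM (0.15 ± 0.05, adjusted p = 0.0277), and SYVN1, which encodes HRD1, had 22.8 ± 3.74 and 29.1 ± 2.59 CPM (0.35 ± 0.12, adjusted p = 0.0469). SYVN1 was at 27.1 CPM in control replicate 2, above ruxolitinib replicate 2 at 26.3 CPM. EDEM1, a lectin that extracts misfolded glycoproteins, had 169 ± 4.85 and 153 ± 3.19 CPM (-0.15 ± 0.04, adjusted p = 0.0271). With the batch number as a block the adjusted p was 0.112 for SEL1L, 0.106 for SYVN1 and 0.111 for EDEM1. Leaving out control replicate 1 gave 0.0911, 0.0861 and 0.150 for the same genes, and ruxolitinib replicate 1 gave 0.124, 0.134 and 0.0737. SEL1L also lost its call without control replicate 2 (0.108), and SYVN1 and EDEM1 without control replicate 3 (0.104 and 0.193) or ruxolitinib replicate 3 (0.144 and 0.0738). Dropping the pair of batch 1 gave 0.289, 0.277 and 0.209 for SEL1L, SYVN1 and EDEM1, and that of batch 3 gave 0.0610, 0.308 and 0.196. In all, SEL1L and SYVN1 each lost their call under 8 of the 17 alternatives and EDEM1 under 11, among them median-ratio and upper-quartile scaling (0.0767 and 0.0840) and DESeq2 (0.0944). Exons of SYVN1 overlap FAU on the same strand, a ribosomal protein gene that had 710% of its counts and rose by 0.33 ± 0.05. MRPL49, on the opposite strand, overlaps SYVN1 over 356 bases and had 106% of its counts (0.16 ± 0.07, adjusted p = 0.115). The sources used here do not say how shared reads were assigned.

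The transcripts of the sensors moved in different directions. EIF2AK3 (PERK) had 15.2, 16.2 and 17.2 CPM in control and 25.8, 26.4 and 25.3 CPM with ruxolitinib (a log2 difference of 0.67 ± 0.08, adjusted p = 3.42e-05). ERN1 (IRE1) had 23.5, 22.7 and 22.2 CPM in control and 18.7, 16.4 and 19.2 CPM with ruxolitinib (-0.33 ± 0.08, adjusted p = 0.00818, and 0.0917 once the pair of batch 1 was dropped). For both genes the groups did not overlap, which was also so for 44.2% of all tested genes. ATF6 had 94.3 ± 4.28 and 90.1 ± 3.57 CPM (-0.07 ± 0.05, 95% interval -0.18 to 0.05, adjusted p = 0.392).

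The transcription factor XBP1 (chromosome 22, 28794555 to 28800597) rose with the chaperones. It stood at 164, 156 and 165 CPM in control and at 251, 262 and 254 CPM with ruxolitinib (a log2 difference of 0.66 ± 0.04, adjusted p = 4.66e-07). XBP1 is itself a target of ATF6, and its counts cover the unspliced and the spliced form together. CREB3L2, an ER-anchored factor for secretory genes, had 82.4 ± 1.13 and 94.7 ± 6.10 CPM (0.20 ± 0.05, adjusted p = 0.0159). CREB3L2 no longer passed with the block (0.0520), without control replicate 1 (0.0515), without ruxolitinib replicate 1 or 3 (0.0802 and 0.0543) or after dropping the pair of batch 1 or 3 (0.207 and 0.103). WFS1, an ER membrane protein of calcium handling, was too low to test, with 4 counts over the control libraries and 0 with ruxolitinib, where 0 allows up to 0.158 to 0.161 CPM per library.

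**Figure D2:**
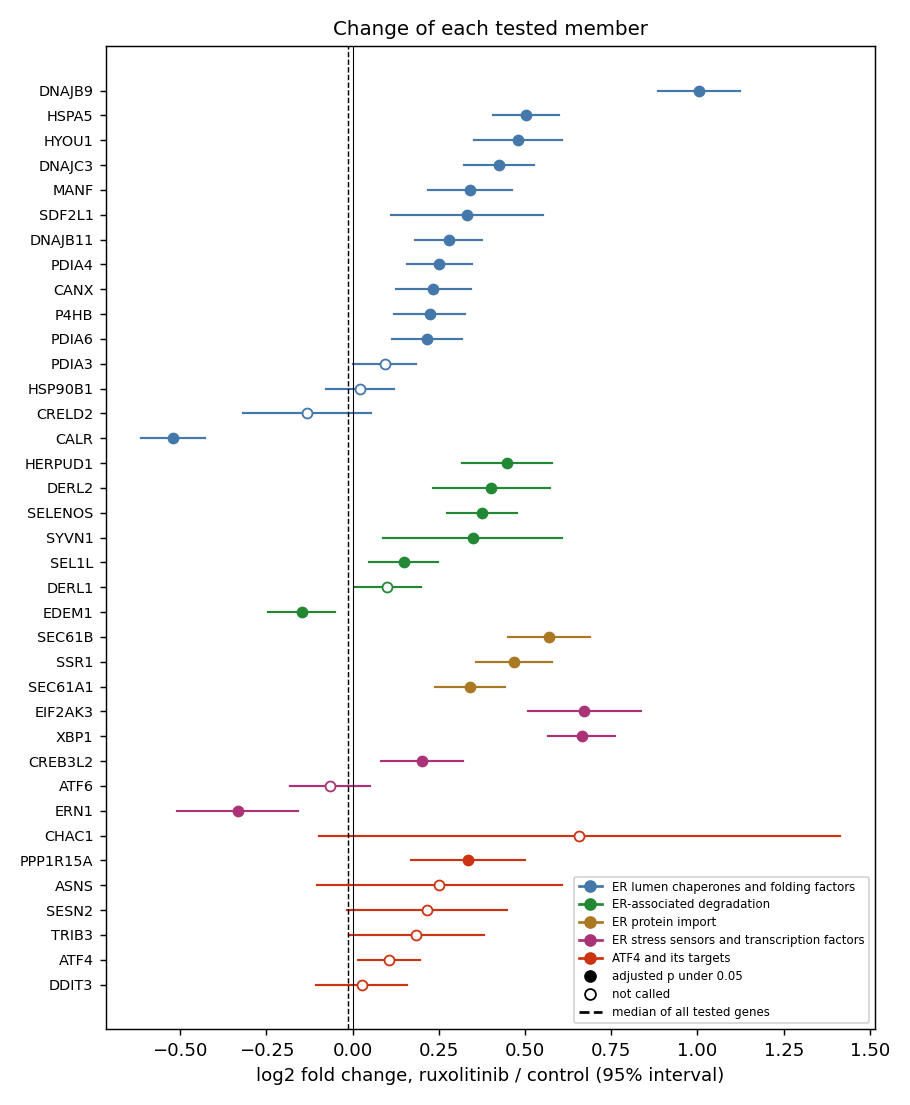
Log2 fold change of each of the 37 tested members with its 95% interval, coloured by role, with filled points for genes past the threshold and a dashed line at the median of all tested genes (-0.01). The intervals of the ATF4 target genes cross 0, except that of PPP1R15A, while most chaperone, import and degradation intervals lie above 0.

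ATF4 and its targets had 1 call among 7 genes (14.3%), higher with ruxolitinib, beside 13.6% of all tested genes called higher. ATF4 itself had 306, 314 and 301 CPM in control and 331, 327 and 332 CPM with ruxolitinib (a log2 difference of 0.11 ± 0.04, adjusted p = 0.073). Its groups did not overlap but differed little, and it passed with upper-quartile scaling (0.0239) and without both libraries of batch 2 (0.0185). PPP1R15A (GADD34), which directs the phosphatase that removes the eIF2alpha mark, had 249, 303 and 262 CPM in control and 351, 321 and 357 CPM with ruxolitinib (0.34 ± 0.07, adjusted p = 0.00742). That call was lost without both libraries of batch 1 (0.0975) or batch 3 (0.107), and its ratio within batches 1, 2 and 3 was 0.50, 0.08 and 0.44 on the log2 scale.

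DDIT3, TRIB3 and SESN2 did not pass in the main fit. DDIT3 (CHOP), a factor linked to ER stress-induced apoptosis, had 35.3, 37.7 and 36.3 CPM in control and 36.1, 36.7 and 38.8 CPM with ruxolitinib. These groups overlapped (0.03 ± 0.06, 95% interval -0.10 to 0.16, adjusted p = 0.776). Exons of DDIT3 overlap MARS1 on the opposite strand over 355 bases, and MARS1 had 335% of its counts and a log2 difference of 0.09 ± 0.04 (adjusted p = 0.141). With the strand setting unknown, reads of the shared bases cannot be told apart. TRIB3, a pseudokinase that binds AKT, had 23.6, 29.7 and 23.9 CPM in control and 29.9, 29.5 and 28.6 CPM with ruxolitinib (0.19 ± 0.09, adjusted p = 0.145). SESN2, a stress-induced inhibitor of mTORC1, had 17.9, 20.8 and 15.4 CPM in control and 21.8, 19.5 and 21.7 CPM with ruxolitinib (0.22 ± 0.11, adjusted p = 0.152). For TRIB3 and SESN2 control replicate 2 was the library that reached the ruxolitinib range. Without that library both were higher (0.30 and 0.33, adjusted p = 0.0068 and 0.0153), as they were after dropping the pair of batch 2.

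The lowest ATF4 targets gave little information. ASNS, asparagine synthetase, had 3.81 ± 0.609 CPM in control and 4.53 ± 0.259 CPM with ruxolitinib (0.25 ± 0.16, 95% interval -0.10 to 0.61, adjusted p = 0.279). CHAC1, which degrades glutathione, had 36 counts over the control libraries and 49 with ruxolitinib (0.66 ± 0.35, 95% interval -0.10 to 1.41, adjusted p = 0.18). At this depth a change of CHAC1 as large as that of DNAJB9 lies inside the interval.

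Setting the ATF6/XBP1 chaperone targets beside the ATF4 targets, the difference was in the calls and hardly in the medians. Of the 15 chaperone targets 11 rose and 1 fell, and of the 6 ATF4 targets 1 rose and 0 fell. These are shares called of 80.0% and 16.7%, beside 29.7% of all tested genes, and 1 of 6 higher is close to the 13.6% of all tested genes called higher. At an unadjusted p under 0.05 the only ATF4 target was also PPP1R15A. The median log2 fold change was 0.25 for the chaperone targets and 0.23 for the ATF4 targets, and all 6 ATF4 targets had a positive value. The standard error ranged from 0.06 to 0.35 over the ATF4 targets and from 0.04 to 0.10 over the chaperone targets, so the ATF4 side was measured less precisely. Without control replicate 2, or without the pair of batch 2, the ATF4 targets had 3 calls, all higher, and without both libraries of batch 1 the chaperone targets had 6 higher and 1 lower and the ATF4 targets 0. Without the pair of batch 3 the ATF4 targets also had 0. No test of the difference between these groups of genes was made.

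Per length of exon the 6 most abundant members were chaperones, while other chaperones were low, with CRELD2 at rank 33 and SDF2L1 at rank 28 in control. CALR stood first in control, at 648 ± 10.03 CPM per kb, followed by HSPA5 at 311 ± 10.1, P4HB at 216.5 ± 10.2, HSP90B1 at 211 ± 8.21 and PDIA3 at 187 ± 3.08 CPM per kb. P4HB and HSP90B1 did not differ beyond their spread. With ruxolitinib CALR and HSPA5 came together, at 452 ± 8.90 and 441 ± 1.79 CPM per kb, whereas in control CALR was far above. ATF4, at 122 ± 2.68 CPM per kb in control, and PPP1R15A, at 87.8 ± 9.13, were far above the other genes of their arm, of which DDIT3 came next at 27.9 ± 0.928 CPM per kb. In all, the members took 1.03% to 1.08% of counts in control and 1.14% to 1.16% with ruxolitinib.

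**Figure D3:**
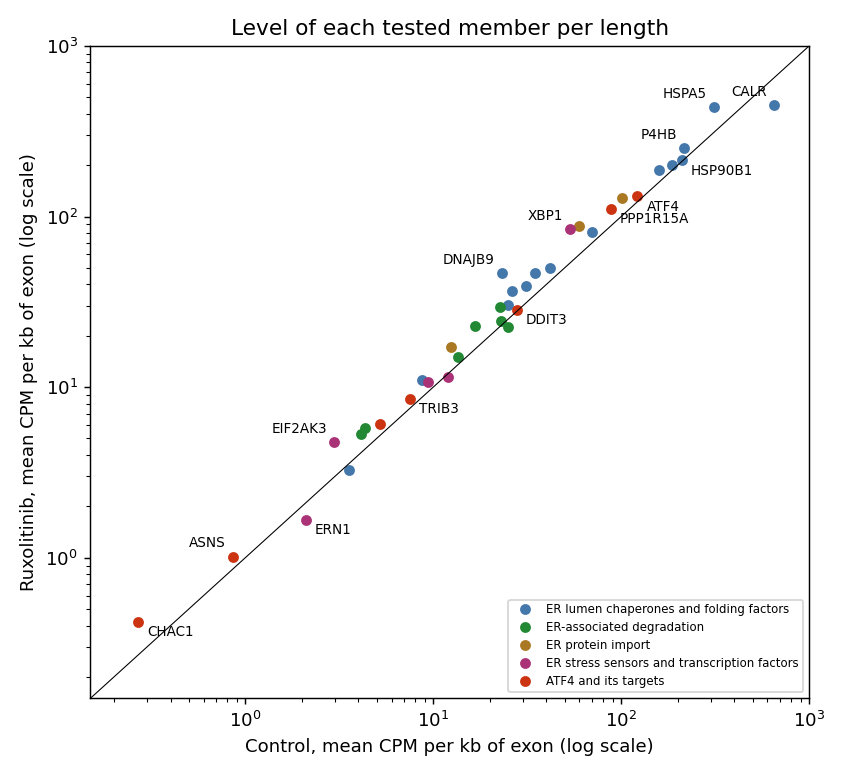
Mean level of each of the 37 tested members in control (x axis) and with ruxolitinib (y axis), as CPM per kb of exon on log scales, coloured by role, with the line of equality. HSPA5, DNAJB9, XBP1 and EIF2AK3 lie above the line, CALR and ERN1 below it, and DDIT3 on it.

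Genes of the secretory pathway outside the members also leaned towards higher levels. Of 30 tested genes of the translocon, signal peptidase and oligosaccharyltransferase, 24 rose, 1 fell and 5 did not pass (median log2 fold change 0.28). That is 83.3% called, beside 29.7% of all tested genes, of which 13.6% were higher and 16.1% lower. SEC61G, the third Sec61 subunit, rose from 77.6 ± 1.92 to 139 ± 13.7 CPM (0.84 ± 0.07). OSTC and STT3A, of the enzyme that attaches N-linked sugars, rose by 0.76 ± 0.06 and 0.55 ± 0.04. SEC62, which assists post-translational import and serves as a receptor for ER autophagy, was the 1 that fell (-0.16 ± 0.05, adjusted p = 0.0397). It is named here after its value was seen, and it no longer passed under 10 of the 17 alternatives, the block among them (0.133). With the block, 20 genes of this list rose and 0 fell, beside 1288 higher and 1627 lower of all 14051 tested genes.

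Transport from the ER to the Golgi was higher in the same way. Of 32 tested genes, 23 rose, 0 fell and 9 did not pass (median 0.27), and 32 of 32 had a positive log2 fold change. Over all 14051 tested genes 13.6% were called higher, and 6778 had a positive log2 fold change. LMAN1, a cargo receptor for glycoproteins, rose from 110 ± 1.12 to 152 ± 8.44 CPM (0.48 ± 0.05), and SEC23B and SEC24D, subunits of the COPII coat, by 0.65 ± 0.07 and 0.45 ± 0.05. Without both libraries of batch 1, 17 genes rose in each of the translocon and ER-to-Golgi lists, beside 840 of all 14368 genes tested then. Of 21 other ER chaperones, oxidoreductases and isomerases, 7 rose, 0 fell and 14 did not pass (median 0.11). This share called, 33.3%, was close to the 29.7% of all tested genes, of which 13.6% were higher. Those that rose included the isomerase genes TXNDC5 (0.79 ± 0.07) and PPIB (0.40 ± 0.04) and the J-domain gene DNAJC1 (0.54 ± 0.06).

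Other degradation genes and stress regulators were mixed. Of 21 other ER-associated degradation genes, 7 rose, 4 fell and 10 did not pass (median 0.05), or 3 higher and 3 lower with the block. In the main fit that is 52.4% called, beside 29.7% of all tested genes. With the block, 2915 of all 14051 tested genes passed. EDEM2, of the same family as EDEM1, fell by 0.55 ± 0.06, while AUP1, which recruits a ubiquitin-conjugating enzyme, rose by 0.46 ± 0.05 and the lectin gene ERLEC1 by 0.50 ± 0.06. Of 17 other ER stress regulators, 3 rose, 5 fell and 9 did not pass (median 0.01), or 3 and 3 with the block. In the main fit that is 47.1% called, beside the same 29.7%. TXNIP, which binds thioredoxin, fell by 0.80 ± 0.05, and BCAP31 and TMBIM6, ER membrane proteins linked to cell death, rose by 0.24 ± 0.04 each (BCAP31 adjusted p = 0.0573 without the pair of batch 1). ATF6B, the paralogue of ATF6, fell from 90.9 ± 9.76 to 54.6 ± 8.07 CPM (-0.74 ± 0.12, adjusted p = 0.00382).

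The wider ATF4 programme had no common direction. All 24 other ATF4 target genes were tested, of which 4 were higher, 4 lower and 16 not past the threshold, with a median of 0.01. The share called, 33.3%, was close to the 29.7% of all tested genes. VLDLR, a lipoprotein receptor, rose from 23.9 ± 0.970 to 43.5 ± 1.46 CPM (0.87 ± 0.06), and DDIT4, an inhibitor of mTORC1, from 164 ± 4.52 to 230 ± 4.37 CPM (0.48 ± 0.04). ATF3, a stress-induced repressor, fell from 66.0 ± 0.990 to 46.1 ± 0.875 CPM (-0.52 ± 0.05). SLC38A2 and SHMT2 also rose (0.41 ± 0.04 and 0.18 ± 0.05, adjusted p = 1.50e-05 and 0.0216). PCK2, GDF15 and NUPR1 also fell (-1.13 ± 0.16, -1.16 ± 0.30 and -1.28 ± 0.44), the last at under 1 CPM and with its call lost under 13 alternatives. GDF15 had 125 counts over the control libraries and 48 with ruxolitinib. SLC38A2, SHMT2, PCK2, GDF15 and NUPR1 were named after their values were seen. CEBPB, a partner of ATF4, had 85.9 ± 18.9 and 106 ± 2.76 CPM (0.30 ± 0.16, adjusted p = 0.216). CEBPB was higher without control replicate 2 (0.50, adjusted p = 8.3e-06) or the pair of batch 2, and also by DESeq2 (adjusted p = 0.0123).

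Among the enzymes that set eIF2alpha phosphorylation, the antiviral kinase moved most. EIF2AK2 (PKR), an interferon-induced kinase activated by double-stranded RNA, went from 311 ± 13.8 down to 33.8 ± 0.370 CPM (-3.20 ± 0.05 on the log2 scale), opposite in direction to EIF2AK3. The kinase gene EIF2AK4 (GCN2) also fell (-0.24 ± 0.07, adjusted p = 0.0275), and EIF2AK1 did not pass (-0.08 ± 0.06, adjusted p = 0.317). EIF2AK4 and EIF2AK1 were named after their values were seen. The list examined held 15 genes outside the members: eIF2alpha kinases, a phosphatase subunit, eIF2 and eIF2B genes, and EIF2A, DELE1 and OMA1. Of these 15, 3 rose, 3 fell and 9 did not pass (median -0.07). That is 40% called, beside 29.7% of all tested genes, of which 13.6% were higher and 16.1% lower. EIF2A, an alternative initiation factor, had 0.28 ± 0.06 (adjusted p = 0.0044, and 0.0812 once the pair of batch 1 was dropped). EIF2S3, the gamma subunit of eIF2, had -0.21 ± 0.05 (adjusted p = 0.00635), and its call was lost without control replicate 1 or 3 (0.0544 and 0.0619) and without the pair of batch 1 or 3 (0.131 and 0.0859). Without both libraries of batch 1, 0 genes of the list rose and 1 fell, beside 840 higher and 1143 lower of all 14368 genes tested then.

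**Figure D4:**
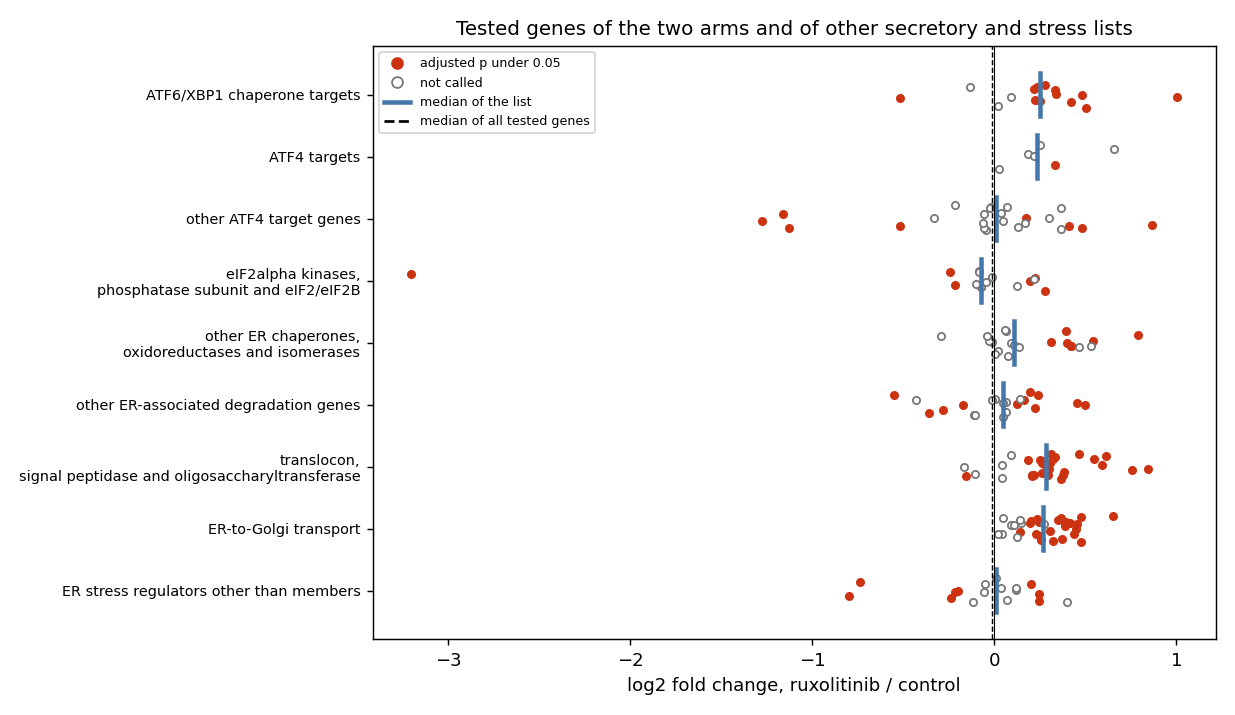
Log2 fold change of every tested gene in the ATF6/XBP1 chaperone targets, the ATF4 targets and 7 further lists, with filled red points for genes past the threshold, a blue bar at each list's median and a dashed line at the median of all tested genes. The medians of the translocon and ER-to-Golgi lists (0.28 and 0.27) lie beside those of the chaperone targets (0.25) and the ATF4 targets (0.23), and EIF2AK2 is the point near -3.20.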

How the data were processed

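Poly-A-selected RNA of 6 THP-1 libraries, 3 control and 3 ruxolitinib, was sequenced. The deposited table holds 1 whole number per gene and library, which are raw counts as far as the values show. Per the submitters' processing notes the build was hg38. The sources used here do not name the aligner, counter, annotation release or strand setting, so overlapping genes on opposite strands cannot be separated. A total of 19 members have an exon that overlaps another gene. Beside those named above, DERL2 overlaps MIS12 (29.3% of the counts of DERL2) and CRELD2 overlaps ALG12 (22.6%), both on the opposite strand. DNAJB11 overlaps AC068631.2 on the same strand (12.2%).

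Counts were tested with edgeR 4.0.16 (R 4.3.3; glmQLFit and glmQLFTest, robust) after TMM scaling and filterByExpr (minimum count 10, minimum total 15), leaving 14051 genes, over which p-values were adjusted after Benjamini and Hochberg, and 0.05 was the threshold. CPM were taken over TMM-scaled totals and given as mean ± SD, and within-batch ratios added 0.1 CPM. The labels do not say whether each library is a culture of its own, and the p-values reflect only how these samples vary, possibly for technical reasons alone. Floors and counts cover counting error only. A count of 0 was taken to allow 3 counts.

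The pairing comes from the batch label (1, 2 or 3), which 1 library of each group carries. The 2 libraries of a batch did not deviate together from their groups: the correlation of their deviations was -0.03, -0.27 and -0.15 over genes. The fit without the block was the main one. The 17 alternatives were the block, 3 other scalings, 2 other filters, DESeq2 1.42.0, limma-voom (limma 3.58.1), and leaving out each library or batch pair. The procedure was checked on simulated counts, drawn without a batch effect and with few changed genes, so the check covers the code alone.

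Members and lists were chosen with earlier results of these data known. All members are named, and of each further list the 3 called genes with the smallest adjusted p, with EIF2AK2, ATF3, CEBPB and ATF6B. Gene positions and exon lengths are from GENCODE 29 on GRCh38, where 58340 of 61517 identifiers matched. Promoter windows are from RefSeq.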

Additional observations from a re-analysis of the deposited data

How the results depend on the processing

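Of 37 tested members, 15 of 26 called ones kept their call under all 17 alternatives, 11 lost it under at least 1, 5 uncalled ones gained one, and no called direction reversed. The calls on single members that changed are given beside them. Leaving out libraries singly or in batch pairs, the count of called members ranged from 15 to 29 (14 to 26 higher, 1 to 3 lower), that of chaperone targets from 7 to 12 (6 to 11 higher), that of ATF4 targets from 0 to 3, all higher, and that of all tested genes from 1983 to 5034. With the batch number as a replicate block, 21 members passed, 19 higher and 2 lower, and the calls of SDF2L1, SEL1L, SYVN1, EDEM1 and CREB3L2 were lost and no other member's call changed. Scaling moved the median of all tested genes to between -0.05 and 0.02, and the 3 other scalings left 24 to 28 members called. Depth limits CHAC1, ASNS and WFS1. The counts for the role and pathway lists under these alternatives were added after seeing the data.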
